A study of Homo sapiens with 8 samples.

Results

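NRF2 target genes were followed in the messenger RNA of 2 human colorectal cancer (CRC) cell lines after depletion of peroxiredoxin II (PrxII). The group held the transcription factor gene NFE2L2 (NRF2), its repressor KEAP1 and the genes for detoxification, glutathione and NADPH that NRF2 is known to drive. Members were taken by gene symbol from a fixed list, and all 36 were present among the 25192 symbols of the tables. The list was chosen with earlier results of these data known, so shares set beside all genes describe it and do not test it. HT29 and SW480 cells, established lines that both carry truncated APC, were grown in McCoy's 5A and RPMI1840 medium with fetal bovine serum. In each line, 2 libraries came from cells transfected for 36 h with control siRNA and 2 from cells transfected for 36 h with siRNA against PRDX2, the gene of PrxII. Duplicates were not stated to be separate transfections, so the p-values measure the spread between these libraries, which may be technical. Each line was grown in its own medium, is a single line and was deposited apart from the other. Line, medium and any batch therefore cannot be told apart.

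NRF2 is a basic leucine zipper factor that KEAP1 holds for ubiquitination and destruction. Oxidants and electrophiles modify cysteines of KEAP1, NRF2 then escapes, pairs with a small MAF protein such as MAFG and binds antioxidant response elements. The known target genes make and recycle glutathione and NADPH, reduce quinones and carbonyls, degrade haem, store iron and export conjugates. PrxII is itself a thiol peroxidase that removes hydrogen peroxide from the cytosol, and the comparison of siRNAs asks how this gene group behaves when it is depleted.

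The antioxidant response element core was searched as TGACNNNGC on both strands of 300 base RefSeq promoter windows, which run from 250 bases before to 50 bases after a gene's start. The core can share letters with the AP-1 site TGANTCA. Of the 36 members, 27 had a window, and 10 of them held the core, 8 of these before the start. Over the whole table, 13.3% of the 35116 windows, or 16.1% of the genes, held it, and 10.9% of the windows held it before the start. This last share is of windows, whereas the 8 above are genes, so the values are not in the same unit. The members had 38 windows, of which 10 held the core. HMOX1, SLC7A11, AKR1B10, ABCC1, ABCC3, FTH1, CBR3, ALDH3A1 and TRIM16L had no window in the table. A match is a description of letters and not a bound site. The 9 cores before the start are printed with 16 bases on each side, on the strand of the gene, with the core in capitals. They show the letters within these windows only, and a member without a printed core may carry one outside its window. Coordinates are exact matches in GRCh37, the same assembly as the authors' hg19.

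PGD, chr1:10458904-10458944, plus strand: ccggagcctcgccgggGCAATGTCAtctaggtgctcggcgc
GCLM, chr1:94374996-94375036, minus strand: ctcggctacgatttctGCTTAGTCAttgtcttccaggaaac
EPHX1, chr1:226012961-226013001, plus strand: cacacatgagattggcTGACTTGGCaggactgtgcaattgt
IDH1, chr2:209119914-209119954, minus strand: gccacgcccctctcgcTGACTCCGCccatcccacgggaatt
ME1, chr6:84140883-84140923, minus strand: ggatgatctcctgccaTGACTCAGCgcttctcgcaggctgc
GSTP1, chr11:67351201-67351241, plus strand: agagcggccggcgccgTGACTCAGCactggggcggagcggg
KEAP1, upstream core, chr19:10613477-10613517, minus strand: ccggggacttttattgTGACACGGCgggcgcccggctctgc
KEAP1, downstream core, chr19:10613454-10613494, minus strand: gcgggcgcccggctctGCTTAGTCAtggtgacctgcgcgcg
CBR1, chr21:37442147-37442187, plus strand: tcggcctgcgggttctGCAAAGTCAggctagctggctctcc

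The cores of ME1 and GSTP1 are the same 9 letters and contain an AP-1 site. In KEAP1 the cores begin 54 and 31 bases before the start. PIR and MGST1 held the core only after the start. Members with the printed core included a gene that fell in HT29 cells (IDH1), a gene that rose there (PGD) and others with no call as counted in either line, of which GCLM and ME1 passed in SW480 cells after the GC correction described below.

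Library totals ran from 8857442 to 10164137 expected counts. Levels are given as CPM, counts scaled to the library total after adjustment by edgeR's TMM factor, and 3 counts, the most that a count of 0 allows, make 0.295 to 0.339 CPM of the unadjusted totals, for counting error only. PRDX2 fell from 148.1 and 153.8 CPM to 82.4 and 83.2 CPM in HT29 cells (log2 fold change -0.87, SE 0.05, adjusted p = 1.15e-09, edgeR's quasi-likelihood test). In SW480 cells it fell from 209.1 and 246.1 CPM to 69.5 and 70.7 CPM (log2 fold change -1.70, SE 0.12, adjusted p = 6.18e-04). In bulk RNA, a change in every cell and a change in a share of the cells cannot be told apart. The epithelial markers EPCAM, KRT8, KRT18 and KRT19 were at 261.3 CPM or more in every library, while KRT20 was at 1.01 CPM or less and CDH1 at 30.2 CPM or less in SW480 cells. The leukocyte marker PTPRC was at 0 in all 8 libraries, and the fibroblast marker COL1A1 reached 25.3 CPM in SW480 cells. The duplicates of SW480 control siRNA stood apart from each other. Their median absolute log2 difference was 0.22, against 0.08 in each of the other 3 groups, and it followed transcript GC content with a Spearman's rho of -0.73 across 13601 genes, against -0.21 to -0.14 in the others. Genes are not independent replicates, so no p is given for this. The SW480 results are therefore given as counted, after a correction for GC content, and without either control library.

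In HT29 cells, PrxII depletion went with rises in some NRF2 genes and falls in others. The cystine transporter gene SLC7A11, the aldehyde dehydrogenase gene ALDH3A1, NFE2L2 itself, MAFG, GCLC, SQSTM1, PGD and NQO1 rose by 1.08-fold to 1.55-fold. OSGIN1, BLVRB, IDH1, FTH1, UGDH, FTL and ABCC3 fell to between 0.681 and 0.938 of the control level. Of the 33 members that 2 or more of the 4 libraries held at 10 counts or above, 15 (45.5%) had an adjusted p under 0.05 with edgeR's quasi-likelihood test, against 17.6% of the 12961 genes tested. Of these, 8 were higher (24.2%, against 7.76% of all genes) and 7 lower (21.2%, against 9.82%). Both PrxII siRNA libraries lay above both control libraries for 12 members (36.4%, against 28.3% of all genes) and below them for 13 (39.4%, against 28.7%). The median log2 fold change of the 33 members was -0.06, and that of all genes 0.00. The members were more abundant than other genes, with a median of 76.3 CPM against 34.0 CPM over all genes tested, and their median standard error was 0.05 against 0.08. On log2(TPM + 1), which scales each library to the same sum over transcripts, limma called 8 members higher and 3 lower, and 1252 genes higher and 548 lower, against 1006 and 1273 with edgeR. When all 8 libraries of both lines shared 1 estimate of the spread, SLC7A11 alone among the members passed, against 1.25% of all genes, and without the first PrxII siRNA library 8 members did, against 11.8%. With each HT29 library left out in turn, NFE2L2, SLC7A11, ALDH3A1, MAFG, SQSTM1, IDH1 and FTH1 were called each time, and each of the other 8 lost its call at least once.

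In SW480 cells, the members that passed the test all rose. They were OSGIN1, ABCC3, SQSTM1, HMOX1 and MAFG, by 1.44-fold to 2.13-fold. These are 5 of 33 members (15.2%), against 3.3% of the 14112 genes tested, and against 1.22% of all genes that were called higher. No member was called lower with edgeR (0 of 33, against 2.08% of all genes), while 1 had an unadjusted p under 0.05 with a lower value, and DESeq2 called that gene, IDH1, lower. Both PrxII siRNA libraries lay above both controls for 17 members (51.5%, against 29.6% of all genes) and below them for 2 (6.06%, against 29.0%), IDH1 and UGDH. The log2 fold change was above 0 for 29 of the 33, with a median of 0.19 against 0.00 over all genes. The members had a median GC content of 51.8%, against 48.5% for the genes tested.

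After the correction for GC content, 14 members passed the threshold in SW480 cells, against 16.3% of all genes. NQO1, HMOX1, GCLC, GCLM, SLC7A11, PGD, ME1, OSGIN1, ABCC1, ABCC3, FTL, MAFG and SQSTM1 were higher, and IDH1 was lower. Without the first control library 16 members passed, against 24.1% of all genes, and without the second 20 did, against 52.2%. Since each of these fits has a single control library, that library is assumed to vary like the PrxII siRNA duplicates. Without the first or the second PrxII siRNA library, where the control duplicates alone set the spread, 2 members and none passed, against 0.829% and 0.723% of all genes. The median log2 fold change of the members was 0.19 after the correction, 0.19 without the first control library and 0.24 without the second. In all 4 versions, 18 members had a log2 fold change above 0 and 1, IDH1, below 0, so the sign of the other 14 depended on how the control libraries were treated.

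**Figure D1:**
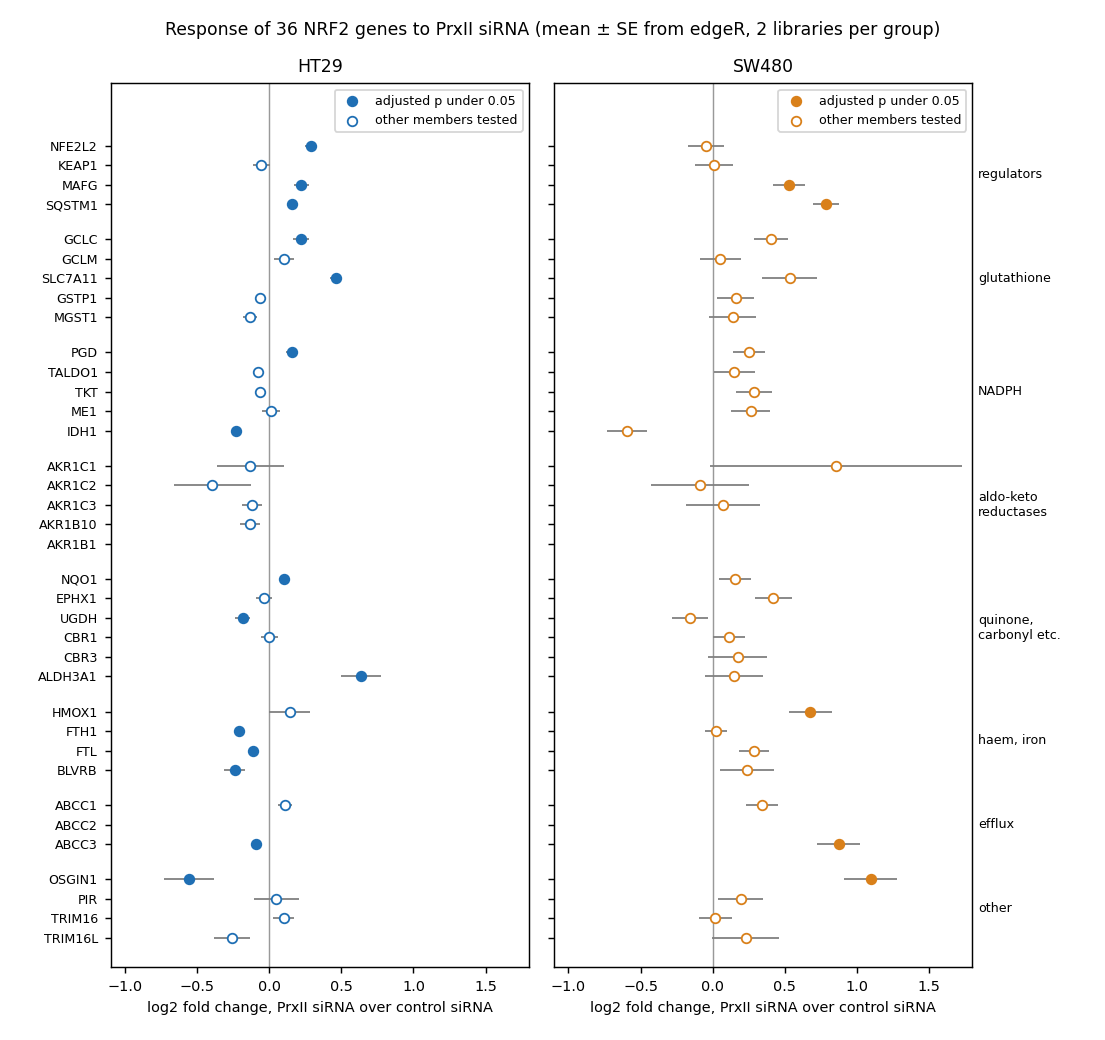
Log2 fold change (x axis) of each NRF2 gene (y axis, grouped by role) after PrxII siRNA in HT29 (left) and SW480 (right) cells, with bars of 1 standard error from edgeR; filled points passed an adjusted p of 0.05 and genes without a point had too few counts. Filled points lie on both sides of 0 in HT29 cells (8 higher, 7 lower) and only to the right in SW480 cells (5 higher).

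**Figure D2:**
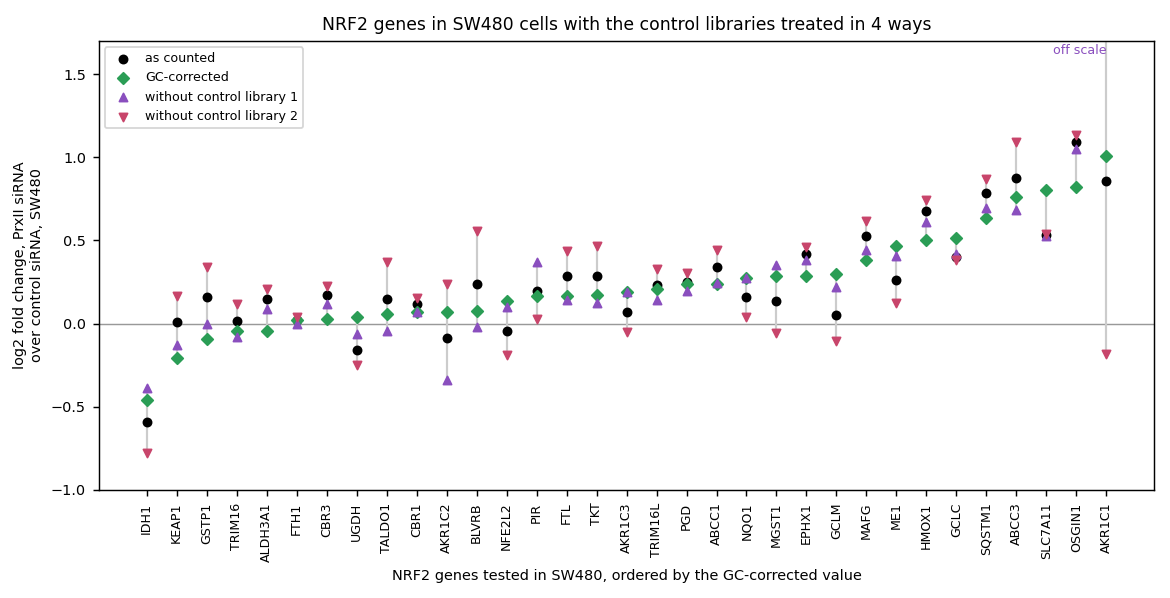
Log2 fold change in SW480 cells (y axis) of the 33 members tested (x axis), as counted, after GC correction, and without control library 1 or 2; the value of AKR1C1 without library 1 is off the scale because library 2 held no AKR1C1 count. IDH1 is below 0 and 18 members are above 0 in all 4 versions.

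The sensor and its regulators differed in their response. NFE2L2, on chromosome 2 from 178083395 to 178257484 on the minus strand, was at 213.1 and 205.4 CPM in HT29 control libraries and at 253.3 and 258.2 CPM with PrxII siRNA. The groups did not overlap, and NFE2L2 rose 1.22-fold (log2 fold change 0.29, SE 0.04, adjusted p = 3.09e-05). In SW480 cells it was at 165.1 and 135.4 CPM in the controls and at 145.0 and 145.8 CPM with PrxII siRNA. These values overlapped, and the log2 fold change of -0.05 (SE 0.12) did not pass the test (adjusted p = 0.842). It was 0.14 after the GC correction (adjusted p = 0.155), 0.10 without the first control library and -0.19 without the second. Its sign in SW480 cells thus depended on how the control libraries were treated.

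KEAP1, the ubiquitin ligase adaptor that holds NRF2, showed no call in either line. It was at 64.5 and 68.0 CPM in HT29 controls and at 64.8 and 62.7 CPM with PrxII siRNA, and at 67.9 and 83.3 CPM against 73.2 and 79.2 CPM in SW480 cells. The groups overlapped in both lines, with log2 fold changes of -0.06 (SE 0.06, adjusted p = 0.571) in HT29 cells and 0.01 (SE 0.13, adjusted p = 0.967) in SW480 cells. After the GC correction the SW480 value was -0.21 (SE 0.07, adjusted p = 0.058).

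MAFG, a small MAF partner of NRF2 on chromosome 17 from 79876146 to 79885611, rose in both lines. It went from 115.6 and 111.3 CPM to 129.1 and 136.1 CPM in HT29 cells, and from 104.7 and 118.3 CPM to 163.3 and 158.5 CPM in SW480 cells. No PrxII siRNA library fell within the range of its controls. The log2 fold change was 0.22 (SE 0.05, adjusted p = 0.00381) in HT29 cells and 0.53 (SE 0.11, adjusted p = 0.041) in SW480 cells. The SW480 call was lost without the first or the second PrxII siRNA library (adjusted p = 0.561 and 0.54) and with limma on log2(TPM + 1) (0.0553).

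SQSTM1 encodes p62, an autophagy receptor that binds KEAP1, and lies on chromosome 5 from 179233398 to 179265078. HT29 controls held 533.8 and 563.2 CPM and the PrxII siRNA libraries 604.2 and 620.3 CPM. SW480 controls held 658.2 and 746.3 CPM and the PrxII siRNA libraries 1189 and 1228 CPM. The groups stood apart in both lines, by 1.12-fold in HT29 cells (log2 0.16, SE 0.03, adjusted p = 7.13e-04) and by 1.72-fold in SW480 cells (log2 0.78, SE 0.09, adjusted p = 0.00536). In SW480 cells the adjusted p of SQSTM1 stayed under 0.05 without either control library and without the first PrxII siRNA library, and was 0.0549 without the second.

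**Figure D3:**
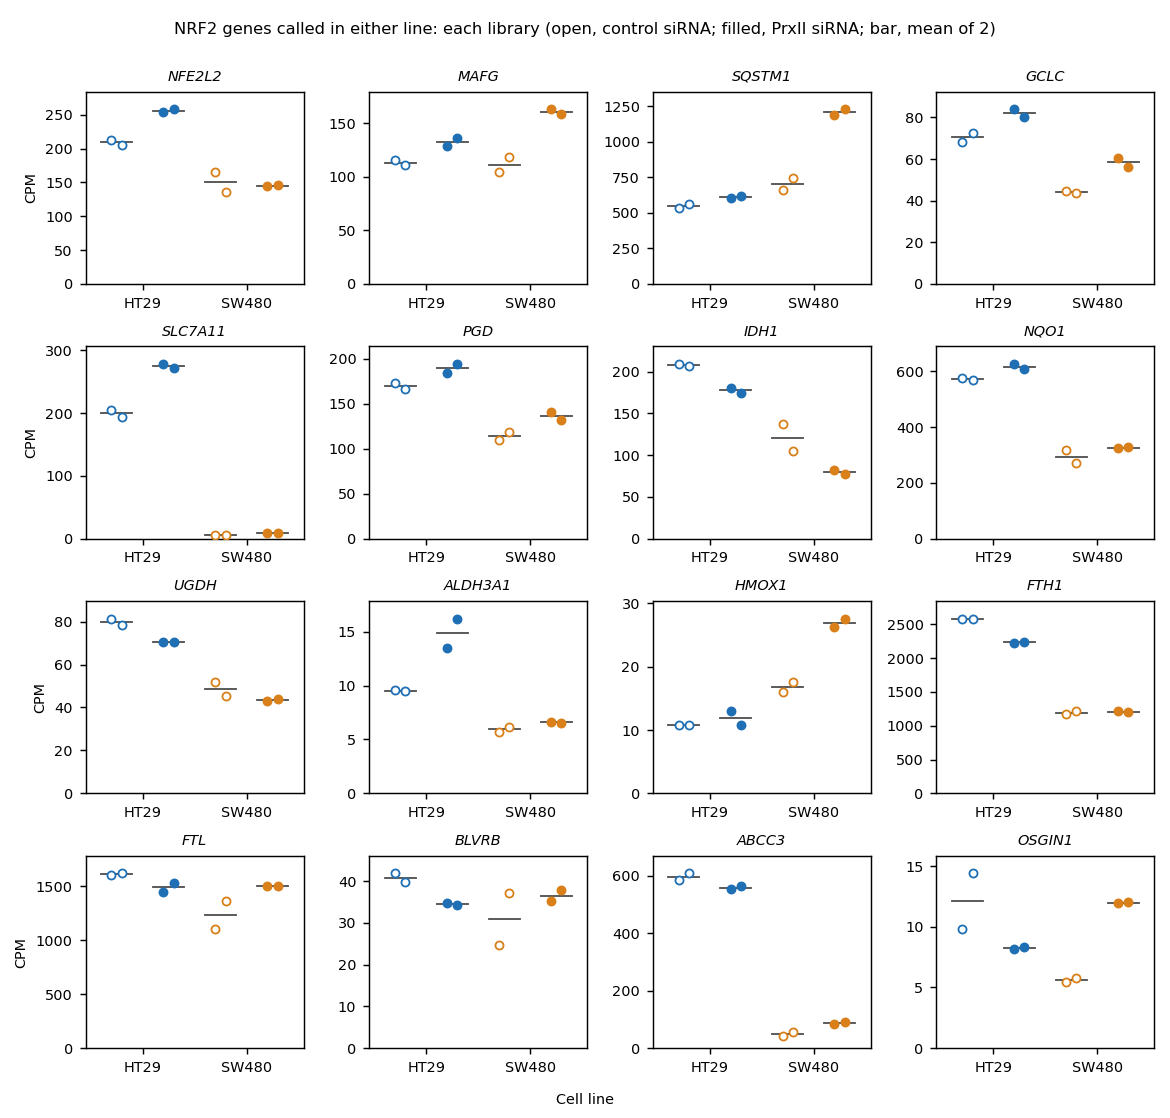
CPM (y axis, from 0) in each library of the 16 NRF2 genes called in either line, with HT29 in blue, SW480 in orange, open points for control siRNA, filled points for PrxII siRNA and a bar at the mean of 2; CPM were scaled within each line. SQSTM1 and MAFG are higher with PrxII siRNA in both lines, and OSGIN1 and ABCC3 are lower in HT29 and higher in SW480 cells.

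Among the 5 genes of glutathione supply and use, 2 rose in HT29 cells, against 7.76% of all genes. In SW480 cells 0 passed as counted with edgeR, against 3.3% of all genes, and 0 with DESeq2. With edgeR, 2 had an unadjusted p under 0.05. SLC7A11, the cystine antiporter on chromosome 4 from 139085251 to 139163503, had 205.3 and 194.0 CPM in HT29 controls and 278.2 and 272.2 CPM with PrxII siRNA. The rise of 1.38-fold (log2 0.46, SE 0.04, adjusted p = 1.64e-07) was the most significant among the rises of members in this line. In SW480 cells SLC7A11 was far lower, at 6.13 and 6.19 CPM in the controls and 8.64 and 9.198 CPM with PrxII siRNA. Those groups did not overlap either, but the log2 fold change of 0.53 (SE 0.19) did not pass the test (adjusted p = 0.138), and passed it at 0.80 after the GC correction (adjusted p = 0.0173).

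GCLC, the catalytic subunit of the rate-limiting enzyme of glutathione synthesis, had 68.3 and 72.6 CPM in HT29 controls and 84.0 and 80.3 CPM with PrxII siRNA. It rose without overlap (log2 fold change 0.22, SE 0.06, adjusted p = 0.00985), a call that was lost with DESeq2 (0.146) and without the first control or the first PrxII siRNA library. SW480 cells had 44.6 and 43.7 CPM in the controls and 60.7 and 56.1 CPM with PrxII siRNA. The gap between the groups exceeded the spread of the duplicates there, and the log2 fold change of 0.40 (SE 0.12) missed the threshold as counted (adjusted p = 0.0963) and passed it after the GC correction at 0.51 (adjusted p = 0.00295). GCLM, its modifier subunit, had no call as counted (log2 fold changes 0.10 and 0.05), and was at 0.30 in SW480 cells after the GC correction (adjusted p = 0.0261). The glutathione transferase genes GSTP1 and MGST1 had log2 fold changes of -0.06 and -0.13 in HT29 cells and of 0.16 and 0.14 in SW480 cells, without a call as counted. After the GC correction MGST1 passed in HT29 cells (-0.15, adjusted p = 0.0218).

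Of the 5 genes of NADPH supply, 1 rose and 1 fell in HT29 cells, against 7.76% and 9.82% of all genes. PGD, an enzyme of the oxidative pentose phosphate pathway, went from 173.3 and 165.6 CPM to 184.4 and 194.0 CPM in HT29 cells (log2 fold change 0.16, SE 0.04, adjusted p = 0.0171), a call lost with DESeq2 (0.105) and without the second control or the second PrxII siRNA library. In SW480 cells it had 109.6 and 118.5 CPM in the controls and 140.5 and 131.2 CPM with PrxII siRNA, with a log2 fold change of 0.25 (SE 0.11, adjusted p = 0.197). PrxII siRNA libraries thus lay above the controls in both lines, with a call as counted in HT29 cells. After the GC correction PGD passed in SW480 cells at 0.24 (adjusted p = 0.0343).

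IDH1, the cytosolic isocitrate dehydrogenase that yields NADPH, moved the other way. It was at 209.4 and 206.7 CPM in HT29 controls and at 180.3 and 175.1 CPM with PrxII siRNA, a fall to 0.854 of the control level (log2 fold change -0.23, SE 0.04, adjusted p = 6.19e-04). SW480 controls differed from each other, at 137.2 and 105.0 CPM, and the PrxII siRNA libraries lay below both, at 82.8 and 77.7 CPM. The log2 fold change there was -0.59 (SE 0.14) with an adjusted p of 0.0568, and -0.46 with an adjusted p of 0.00405 after the GC correction. TALDO1 and TKT, which act in the non-oxidative pentose phosphate branch, and the malic enzyme gene ME1 had log2 fold changes between -0.08 and 0.01 in HT29 cells and between 0.15 and 0.29 in SW480 cells, without a call as counted. After the GC correction ME1 was at 0.47 in SW480 cells (adjusted p = 0.00323).

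The aldo-keto reductase genes, whose products reduce carbonyls of steroids and lipids, gave no call as counted with all libraries of a line, by edgeR or DESeq2. Of them 0 had an unadjusted p under 0.05 with edgeR. Among all genes, edgeR called 17.6% in HT29 and 3.3% in SW480 cells. In HT29 cells AKR1C1, AKR1C2, AKR1C3 and AKR1B10 had log2 fold changes of -0.39 to -0.12. In SW480 cells AKR1C1 was at 1.16 and 0 CPM in the controls, AKR1B10 reached 0.116 CPM at most and was not tested, and AKR1B1 was untested in both lines. AKR1B1 was at 0 in the 4 HT29 libraries, which allows up to 0.318 CPM, and at 0.308 to 0.694 CPM in SW480 cells. AKR1C1, AKR1C2 and AKR1C3 are close paralogs among which reads are shared out by estimation. Their sum had log2 fold changes of -0.13 (SE 0.06, adjusted p = 0.166) for HT29 and 0.11 (SE 0.20, adjusted p = 0.774) for SW480 cells.

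Among the genes of quinone, carbonyl, epoxide and aldehyde metabolism, 5 were tested in HT29 cells, where ALDH3A1 and NQO1 rose and UGDH fell. Of all genes, 7.76% were called higher and 9.82% lower there. In SW480 cells 0 of the 6 passed as counted with edgeR, against 3.3% of all genes, and 0 with DESeq2. With edgeR, 1 had an unadjusted p under 0.05. NQO1, the quinone reductase that often serves as a readout of NRF2, was at 576.5 and 569.0 CPM in HT29 controls and at 626.0 and 606.7 CPM with PrxII siRNA. The groups did not overlap, and the rise was 1.08-fold (log2 0.11, SE 0.03, adjusted p = 0.00691, and 0.0934 without the first PrxII siRNA library). In SW480 cells it had 315.9 and 269.6 CPM in the controls and 324.6 and 328.1 CPM with PrxII siRNA (log2 fold change 0.16, SE 0.11, adjusted p = 0.401). After the GC correction NQO1 passed there at 0.27 (adjusted p = 0.0135). Both SW480 controls lay below the PrxII siRNA libraries, the first of them closely.

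ALDH3A1, which oxidises aldehydes from lipid peroxidation, went from 9.54 and 9.49 CPM to 13.5 and 16.2 CPM in HT29 cells. It had the highest fold change of all members called higher in this line (1.55-fold, log2 0.64, SE 0.14, adjusted p = 0.0042). DESeq2 gave this rise no adjusted p and did not call it. SW480 cells held 5.67 and 6.19 CPM in the controls and 6.58 and 6.57 CPM with PrxII siRNA, a small gap that did not pass (log2 fold change 0.15, adjusted p = 0.677). After the GC correction the ALDH3A1 value there was -0.04 (adjusted p = 0.902). UGDH, which makes the sugar donor for glucuronidation, fell from 81.4 and 78.5 CPM to 70.3 and 70.4 CPM in HT29 cells (log2 fold change -0.18, SE 0.05, adjusted p = 0.0239). This call was lost with DESeq2 (0.278), with limma on log2(TPM + 1) (0.158), and without the first control (0.13) or the first or second PrxII siRNA library (0.101 and 0.087). Its SW480 values were 51.8 and 45.5 CPM in the controls and 43.1 and 44.2 CPM with PrxII siRNA, without a call. CBR1 and EPHX1 had no call as counted, EPHX1 with an adjusted p of 0.0512 in SW480 cells after the GC correction, and CBR3 had too few counts in HT29 cells.

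Of the 4 genes of haem breakdown and iron storage, 3 fell in HT29 cells and 1 rose in SW480 cells as counted. The shares over all genes were 9.82% called lower in HT29 and 1.22% called higher in SW480 cells. HMOX1, the haem oxygenase on chromosome 22 from 35776354 to 35790207, overlapped between groups in HT29 cells, at 10.8 and 10.9 CPM in the controls and 13.1 and 10.7 CPM with PrxII siRNA (log2 fold change 0.14, SE 0.14, adjusted p = 0.558). In SW480 cells it went from 16.1 and 17.6 CPM to 26.3 and 27.6 CPM. This rise was 1.60-fold (log2 0.68, SE 0.15) and passed narrowly (adjusted p = 0.047), with 0.0536 where no filter on low counts was used. Without the first or the second PrxII siRNA library its adjusted p was 0.377 and 0.53.

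The ferritin subunit genes fell in HT29 cells. FTH1 was at 2582 and 2576 CPM in HT29 controls and at 2228 and 2241 CPM with PrxII siRNA, a log2 fold change of -0.21 (SE 0.01, adjusted p = 5.61e-09). In SW480 cells its values of 1172 and 1212 CPM in the controls and 1215 and 1201 CPM with PrxII siRNA overlapped (log2 fold change 0.02, adjusted p = 0.898). FTL went from 1606 and 1620 CPM to 1452 and 1534 CPM in HT29 cells (log2 fold change -0.11, SE 0.02, adjusted p = 0.00112). In SW480 cells the FTL controls, at 1106 and 1361 CPM, both lay below the PrxII siRNA libraries at 1502 and 1505 CPM, with a log2 fold change of 0.29 (SE 0.10, adjusted p = 0.136). After the GC correction FTL passed there at 0.16 (adjusted p = 0.0347). The FTL fall in HT29 cells was not called by limma on log2(TPM + 1) or without the first PrxII siRNA library (adjusted p = 0.064), whereas that of FTH1 was.

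BLVRB, a reductase that acts on biliverdin and flavins, fell from 41.9 and 39.9 CPM to 34.8 and 34.4 CPM in HT29 cells (log2 fold change -0.24, SE 0.07, adjusted p = 0.0283), a call lost with DESeq2 (0.335), without the first control and without either PrxII siRNA library. In SW480 cells its control duplicates, at 24.7 and 37.05 CPM, lay on both sides of the first PrxII siRNA library at 35.3 CPM, and the second was at 37.8 CPM.

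The efflux pump gene ABCC3, on chromosome 17 from 48712138 to 48769614, had opposite calls in the lines. In HT29 cells it was at 583.1 and 607.8 CPM in the controls and at 551.8 and 565.5 CPM with PrxII siRNA, a fall to 0.938 of the control level (log2 -0.09, SE 0.03, adjusted p = 0.0239). That call was lost with DESeq2 (0.125), with limma on log2(TPM + 1) (log2 -0.03, adjusted p = 0.588), without the second control (0.205) and without the first PrxII siRNA library (0.204). SW480 cells held 41.3 and 54.8 CPM in the controls and 83.8 and 92.5 CPM with PrxII siRNA. The rise there was 1.83-fold (log2 0.87, SE 0.15, adjusted p = 0.022), and 0.76 on the log2 scale after the GC correction. It was not called without the second PrxII siRNA library (adjusted p = 0.142) or with limma on log2(TPM + 1) (0.0631). ABCC1 had no call as counted (log2 fold changes 0.11 for HT29 and 0.34 for SW480) and passed in SW480 cells after the GC correction (0.24, adjusted p = 0.0227), and ABCC2, at 1.27 CPM or less in every library, was tested in neither line.

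OSGIN1, an oxidative stress induced growth inhibitor on chromosome 16 from 83964916 to 83999937, also had opposite calls. HT29 controls held 9.85 and 14.4 CPM and the PrxII siRNA libraries 8.19 and 8.31 CPM. SW480 controls held 5.43 and 5.77 CPM and the PrxII siRNA libraries 11.92 and 12.03 CPM. The HT29 fall (log2 -0.55, SE 0.17, adjusted p = 0.0352) rested on control duplicates that lay far apart, and the log2 fold change was -0.80 without the first control and -0.26 without the second. DESeq2 gave this fall no adjusted p and did not call it. The call was lost without the second control (adjusted p = 0.481), without either PrxII siRNA library, and with limma on log2(TPM + 1) (0.122). The SW480 rise was 2.13-fold (log2 1.09, SE 0.19, adjusted p = 0.0212), between 1.05 and 1.13 with each library left out in turn, and 0.82 after the GC correction. The SW480 call was lost without the first or the second PrxII siRNA library (adjusted p = 0.074 and 0.0968). PIR, TRIM16 and TRIM16L had no call as counted, with log2 fold changes of -0.26 to 0.10 in HT29 cells and 0.02 to 0.23 in SW480 cells.

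Whether the lines responded differently was tested with the same 8 libraries fitted at once, with 1 estimate of the spread for both lines. In edgeR, the coefficient of variation between duplicates, common to all genes, was 0.025 in HT29 and 0.099 in SW480 cells fitted apart. It was 0.072 in the joint fit, so SW480 duplicates varied more than that fit assumes. OSGIN1, ABCC3 and SQSTM1 differed, each with a smaller value in HT29 than in SW480 cells. These were 3 of the 35 members tested (8.57%), against 1.12% of 14772 genes, of which 0.508% were called lower in HT29 and 0.616% higher. For OSGIN1 the HT29 effect minus the SW480 effect was -1.65 on the log2 scale (SE 0.28, adjusted p = 0.0216), for ABCC3 -0.96 (SE 0.15, adjusted p = 0.0164) and for SQSTM1 -0.62 (SE 0.10, adjusted p = 0.0156). SQSTM1 rose in both lines, so that its difference is one of size, whereas OSGIN1 and ABCC3 were called in opposite directions, the HT29 call of each being lost in the settings given above. After the GC correction 7 members differed, against 6.26% of all genes, namely these 3 and ME1, FTH1, FTL and MGST1. With all 8 libraries as counted, the rise of NFE2L2 in HT29 cells was not shown to differ from its SW480 value (difference 0.34, SE 0.13, adjusted p = 0.187). The same held for SLC7A11 (-0.07, SE 0.15, adjusted p = 0.877). The NFE2L2 difference was 0.14 after the GC correction (adjusted p = 0.259). The SW480 value of NFE2L2 changed sign with the control library left out, which limits this comparison. The call of OSGIN1 was lost without either PrxII siRNA library of either line and without the second HT29 control, and those of ABCC3 and SQSTM1 without any HT29 library or any PrxII siRNA library of SW480 cells.

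Levels without depletion were compared between the control libraries of the lines, which also serve as the controls above. Most NRF2 genes were lower in SW480 than in HT29 cells. Of 34 members tested, 30 (88.2%) differed, against 67.5% of 14346 genes, with 24 lower in SW480 cells (70.6%, against 31.8% of all genes) and 6 higher (17.6%, against 35.7%). The median log2 difference of the members, SW480 over HT29, was -0.78, against 0.04 for all genes. On log2(TPM + 1), where the median of all genes was 0.15, limma called 22 members lower and 6 higher, and 5628 genes higher and 3816 lower in SW480 cells, against 5122 and 4559 with edgeR.

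Per transcript length, ferritin was the most abundant product of the group. FTH1 was at 4687 and 4671 TPM and FTL at 4191 and 4223 TPM in HT29 controls, and at 2186 and 2234 TPM and 2974 and 3608 TPM in SW480 controls. The order of FTH1 and FTL was thus the reverse in SW480 cells, without overlap in either line. GSTP1 came next, at 1103 and 1164 TPM in HT29 and 604.6 and 759.5 TPM in SW480 cells. NFE2L2 was at 164.4 and 158.1 TPM in HT29 and 131.3 and 105.9 TPM in SW480 controls (edgeR log2 difference -0.58, SE 0.12, adjusted p = 0.00261), and KEAP1 at 54.4 and 57.3 TPM and at 58.7 and 71.3 TPM (0.09, SE 0.13, adjusted p = 0.559).

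Some members were nearly absent from one line. AKR1B10 was at 61.9 and 62.9 TPM in HT29 controls and at 0.16 and 0 TPM in SW480 controls. SLC7A11 was at 45.7 and 43.1 TPM against 1.39 and 1.40 TPM (log2 difference -5.11, SE 0.14, adjusted p = 3.58e-08), and AKR1C3 at 105.7 and 120.7 TPM against 7.80 and 6.58 TPM (-4.11, SE 0.18, adjusted p = 2.31e-07). These 3 genes were lower in SW480 cells by more than their spread. AKR1C1, at 10.9 and 6.49 TPM in HT29 controls, was at 1.99 and 0 TPM in SW480 controls, and the 3 AKR1C genes summed had a log2 difference of -3.49 (SE 0.15, adjusted p = 2.6e-07). ABCC3 was at 247.8 and 257.7 TPM against 18.2 and 25.5 TPM (-3.73, SE 0.15, adjusted p = 1.48e-07). CBR3, a carbonyl reductase, was higher in SW480 cells, at 0.62 and 0.63 TPM in HT29 and 14.1 and 15.1 TPM in SW480 controls (adjusted p = 8.68e-06). PIR was at 11.4 and 11.6 TPM in HT29 and 43.2 and 33.8 TPM in SW480 controls, and TRIM16 at 27.8 and 26.4 TPM and at 94.8 and 108.2 TPM, both called higher in SW480 cells. HMOX1, CBR1 and SQSTM1 were also higher in SW480 cells, by log2 differences of 0.54, 0.50 and 0.26. TRIM16L, a close relative of TRIM16, was lower (log2 difference -1.92, SE 0.20), while the pair summed was higher (1.32, SE 0.12).

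**Figure D4:**
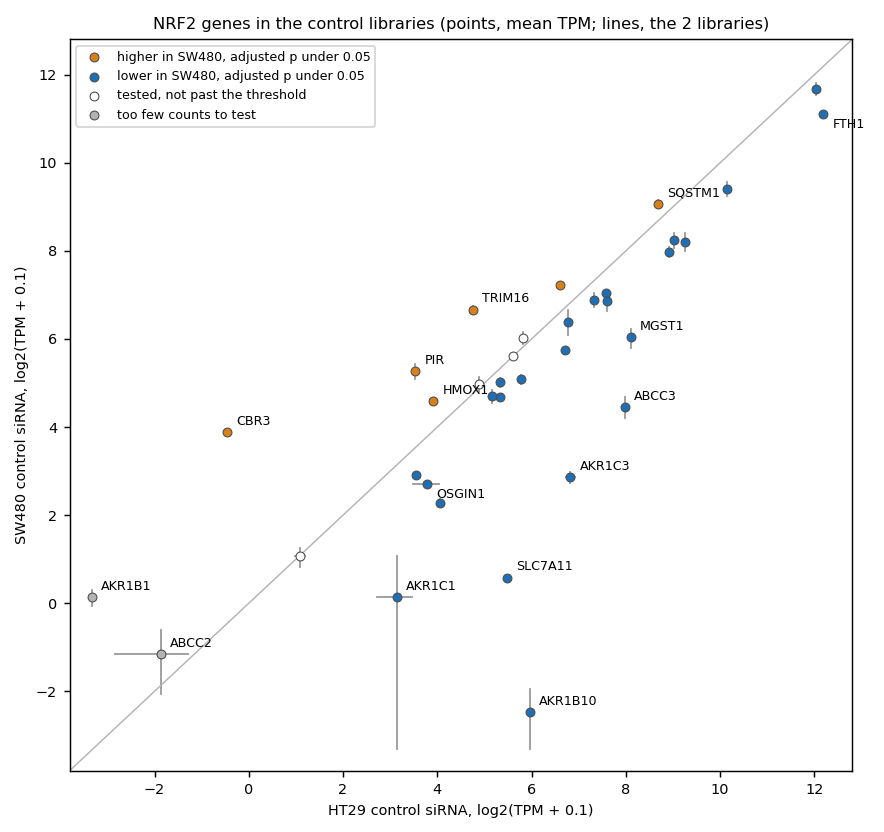
Mean TPM of each NRF2 gene in the control siRNA libraries of HT29 (x axis) and SW480 (y axis) cells, on a log2(TPM + 0.1) scale, with lines to the 2 libraries and colours from edgeR's test on the counts; the diagonal marks equal TPM. Blue points below the diagonal number 24, with AKR1B10, SLC7A11, AKR1C3 and ABCC3 far from it, and orange points above it number 6.

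Of 17 further NRF2 targets outside the 36 that were tested in HT29 cells, 2 rose and 4 fell, against 7.76% and 9.82% of all genes. GPX2, a glutathione peroxidase of the gut epithelium, fell from 446.2 and 467.6 CPM to 383.5 and 388.4 CPM in HT29 cells (log2 fold change -0.24, adjusted p = 1.8e-05) and was at 37.7 and 37.6 CPM against 45.3 and 47.7 CPM in SW480 cells without a call. The difference between the lines was called (-0.55, adjusted p = 0.0347). TXNRD1, the thioredoxin reductase, rose in HT29 cells (log2 fold change 0.19, adjusted p = 6.84e-05), and RXRA, a nuclear receptor, fell (-0.21, adjusted p = 0.00172). In SW480 cells 0 of 17 passed with edgeR, against 6 with an unadjusted p under 0.05 (4 higher, 2 lower). DESeq2 called 1, which was lower. The log2 fold change was above 0 for 12 and below 0 for 5. Among genes for the degradation and the dimer partners of NRF2, 1 of 15 rose and 1 fell in HT29 cells, the coactivator gene EP300 (0.28, adjusted p = 4.02e-04) and the ubiquitin ligase subunit gene SKP1 (-0.15, adjusted p = 0.0217), against the same shares of all genes. In SW480 cells 0 of 16 passed with edgeR, against 6 with an unadjusted p under 0.05 (4 higher, 2 lower). DESeq2 called 1 of these 16, which was lower.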

How the data were processed

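Messenger RNA libraries (TruSeq RNA v2, which does not mark strand) were made from 8 samples, 2 for each siRNA in each cell line, and grouped by the sample labels. For HT29 cells the authors' methods give paired-end reads aligned to hg19 with MapSplice and quantified with RSEM for refGene symbols, and the SW480 tables have the same format. For each gene the authors deposited the RSEM expected count, TPM (scaled to the same sum in each library) and FPKM (scaled by length and total, used only to check the tables). Reads that fit several genes are shared out by estimation, so paralogs and overlapping genes are uncertain.

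Expected counts were rounded and tested with edgeR 4.0.16 (R 4.3.3; glmQLFit and glmQLFTest, TMM, two-sided, Benjamini-Hochberg over all genes tested, threshold 0.05). A gene was tested if 2 or more libraries of the fit held it at 10 counts or above. CPM were scaled within each line, so levels between lines are given as TPM. Fold changes have control siRNA as the denominator. The alternatives were RLE normalization, no filter, DESeq2 1.42.0, limma 3.58.1 on log2 TPM with a pseudocount of 1 or 0.1, the replicate number as a block, all 8 libraries in 1 fit, near-identical genes summed, each library left out in turn, and a GC correction (loess of each library on transcript GC content, span 0.5, used as an offset). GC content and gene coordinates came from the GENCODE annotation of GRCh37 for 92.5% of the symbols and for all 36 members. Promoter sequences are those of RefSeq. The scripts were tested on simulated data.

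Values in every library are given for NFE2L2, KEAP1 and each member with an adjusted p under 0.05 in either line or in the test of the difference, with PRDX2 as the check of the siRNA, and of each other list the counts with at most 3 genes of smallest p. The members and lists were chosen with earlier results of these data known.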

Additional observations from a re-analysis of the deposited data

Results flagged for a closer look

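The effect of PrxII siRNA differed between the cell lines for 3 NRF2 genes, by edgeR's quasi-likelihood test of the difference itself with Benjamini-Hochberg adjustment. For OSGIN1, the oxidative stress induced growth inhibitor, the HT29 effect minus the SW480 effect was -1.6458 on the log2 scale (adjusted p = 0.0216), with both PrxII siRNA libraries below both controls in HT29 cells and above them in SW480 cells. The efflux pump gene ABCC3 had a difference of -0.9635 (adjusted p = 0.0164) with the same opposite order of libraries. The p62 gene SQSTM1 had a difference of -0.6224 (adjusted p = 0.0156), with PrxII siRNA above control in both lines. DESeq2 gave no adjusted p for the difference of OSGIN1. Over the other alternatives, the log2 difference ran from -1.89 to -1.32 for OSGIN1, from -1.20 to -0.78 for ABCC3 and from -0.73 to -0.48 for SQSTM1, and the adjusted p from 0.000162 to 0.165, from 1.23e-09 to 0.165 and from 8.58e-10 to 0.165.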

How the results depend on the processing

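No called member changed direction under any alternative run. The number of members called in HT29 cells, 15, was 8 with DESeq2 (871 of all genes, against 2279) and 1 with all 8 libraries in 1 fit (185), and ran from 8 to 14 with a library left out (1527 to 2043 of all genes), the lowest without the first PrxII siRNA library. In SW480 cells, 5 members became 3 with limma on log2(TPM + 1) and on log2(TPM + 0.1) (214 and 177 of all genes, against 466), 14 with the GC correction (2240) and 12 with all 8 libraries in 1 fit (2415). With a library left out they ran from 0 to 20 (102 to 7364), the lowest without the second PrxII siRNA library and the highest without the second control. For the difference between the lines, 3 members became 7 with the GC correction (897 of all genes, against 166), 0 with limma on log2(TPM + 0.1) (43) and 0 to 15 with a library left out (6 to 5243), and all genes called numbered 267 without the filter, 311 with DESeq2 and 103 with limma on log2(TPM + 1) (44 higher and 59 lower, against 91 and 75). The cause was not tested. The fits with a library left out use fewer samples, and a group left with a single library adds nothing to their estimate of the spread. With limma on log2(TPM + 1), 126 genes were higher and 88 lower in SW480 cells, against 172 and 294 with edgeR. The count between the control libraries, 30, ran from 23 to 32 with a library left out (7352 to 11124 of all genes, against 9681) and from 27 to 31 otherwise. TRIM16, without a call, had a difference between the lines of 0.09, and of -0.0181 when summed with TRIM16L.

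The labels number the duplicates 1 and 2 in both siRNA groups. Deviations of same-numbered libraries correlated at 0.107 in HT29 and 0.127 in SW480 cells across genes. With only 2 pairs a line, this cannot decide whether same-numbered libraries were prepared together. With the replicate block 18 members were called in HT29 cells (2889 of all genes), 7 in SW480 cells (1727) and 3 for the difference (196). With the GC correction and the block these were 16 (2658), 15 (2806) and 7 (883).

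Low counts limit AKR1B1, ABCC2, AKR1B10 in SW480 cells and CBR3 in HT29 cells, and the spread of the SW480 control duplicates limits all SW480 tests.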

Other observations

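Genes that share regulation with some of the members were read beside them. The list of the aryl hydrocarbon receptor (AHR) held the receptor gene, its partner gene ARNT and AHR targets, and NQO1 and ALDH3A1 are known targets as well. Of the 6 genes of the list tested, 3 rose in HT29 cells and 2 in SW480 cells, with none lower. The shares of all genes called higher were 7.76% and 1.22%. AHR and ARNT themselves had no call in either line. CYP1B1, a cytochrome P450, went from 37.9 and 39.7 CPM to 75.8 and 78.6 CPM in HT29 cells (log2 fold change 0.99, adjusted p = 4.62e-09, edgeR's quasi-likelihood test) and stayed at 2.33 CPM or less in SW480 cells. TIPARP, a mono-ADP-ribosyltransferase, rose from 116.6 and 115.6 CPM to 188.6 and 177.3 CPM in HT29 cells (0.66, adjusted p = 2.03e-08). CYP1A1 rose from 6.13 and 5.66 CPM to 24.8 and 24.4 CPM in SW480 cells (2.06, adjusted p = 0.00149). It was also called higher in HT29 cells, from 2 counts in each control to 26 and 13 counts with PrxII siRNA (3.17, adjusted p = 0.00111).

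The list of ATF4, the factor of the amino acid response, held the ATF4 gene and its targets, and SLC7A11 and SQSTM1 are known targets as well. Genes of the list rose in 10 of 10 cases in HT29 cells and in 2 of 10 in SW480 cells with edgeR. The shares of all genes called higher were 7.76% and 1.22%. The median log2 fold change was 0.56 in HT29 cells and 0.21 in SW480 cells, against 0.00 over all genes in each. ASNS, the asparagine synthetase, went from 147.2 and 156.9 CPM to 260.5 and 268.0 CPM in HT29 cells (0.80, adjusted p = 4.69e-10) and from 100.1 and 82.5 CPM to 140.7 and 138.7 CPM in SW480 cells (0.61, adjusted p = 0.0352). DDIT4, a growth inhibitor of the stress response, rose in HT29 cells (0.60, adjusted p = 4.95e-10), had a log2 fold change of -0.22 without a call in SW480 cells, and differed between the lines (0.82, adjusted p = 0.00722). ATF3, a stress-induced factor, rose from 42.4 and 42.3 CPM to 81.0 and 79.9 CPM in HT29 cells (0.93, adjusted p = 5.61e-09). The part of AHR or ATF4 in the values of the shared genes was not tested.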
